A study of Mus musculus with 10 samples.

Results

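Oligodendrocyte precursor cells (OPCs) are the dividing glial progenitors of the adult brain, and here they are barcodes of the mouse medial prefrontal cortex chosen by raw counts of unique molecular identifiers (UMIs, 1 per captured RNA molecule). A barcode was taken as an OPC when it held at least 1 UMI of Pdgfra and at least 4 UMIs summed over Pdgfra, C1ql1, Lhfpl3, Vcan, Matn4 and Cspg4. It also had to hold 0 UMIs of Enpp6, Mog and Opalin and at most 1 UMI summed over Slc17a7, Gad1, Gad2, Gja1, Cldn5 and Dcn. Of 64937 deposited barcodes, 48816 had at least 500 genes and at most 15% mitochondrial UMIs, and 1931 of these were OPCs. The study compared male C57BL/6N mice, over 2 months of age, that held rank 1 (dominant) or rank 4 (subordinate) in a social hierarchy, with no other genotype or treatment named in the labels. Every brain was taken 1 day after the last tube test, the contest that set the ranks, and the tissue was dissociated at 37 °C for 60 min. There were 5 droplet libraries per rank, and each pooled cortical tissue of 2 or 3 mice, so the library was the replicate. The comparison asks whether OPC number, state and gene expression went with social rank.

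OPCs carry the receptor for platelet-derived growth factor A, a mitogen and survival factor, and they tile the cortex as a proliferating pool throughout life. Some leave the cell cycle, pass through a short committed stage marked by Gpr17, Bmp4 and Enpp6 and become myelinating oligodendrocytes under the transcription factors Olig2, Sox10 and Myrf. OPCs also receive synapses from neurons through glutamate and GABA receptors, and they coat themselves with chondroitin sulphate proteoglycans such as NG2, the product of Cspg4.

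The markers that choose the cells lie on several chromosomes of the GRCm38 build. Pdgfra spans chr5:75152292-75198215, Cspg4 chr9:56865033-56899870, C1ql1 chr11:102939264-102946688, Matn4 chr2:164389393-164405160 and Lhfpl3 chr5:22746059-23275597, all annotated as protein-coding genes. The upstream sequence of Matn4, a matrilin of the extracellular matrix, and of Lhfpl3, a membrane protein of the tetraspan kind, is shown because both genes define the class and were lower in every other class compared. Each window holds the 250 bases before the start of the gene in RefSeq on GRCm38.p6, 5′ to 3′ on the strand of the gene, at chr2:164405161-164405410 (minus strand) for Matn4 and chr5:22745804-22746053 (plus strand) for Lhfpl3. Capitals mark an E-box of the form CAGCTG or CAGATG, on either strand, the kind of site bound by Olig2 and related factors.
Matn4: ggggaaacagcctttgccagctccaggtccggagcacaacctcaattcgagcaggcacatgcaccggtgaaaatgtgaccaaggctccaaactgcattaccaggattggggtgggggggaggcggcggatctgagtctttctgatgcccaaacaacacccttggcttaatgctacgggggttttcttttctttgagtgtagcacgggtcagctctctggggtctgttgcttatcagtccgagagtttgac
Lhfpl3: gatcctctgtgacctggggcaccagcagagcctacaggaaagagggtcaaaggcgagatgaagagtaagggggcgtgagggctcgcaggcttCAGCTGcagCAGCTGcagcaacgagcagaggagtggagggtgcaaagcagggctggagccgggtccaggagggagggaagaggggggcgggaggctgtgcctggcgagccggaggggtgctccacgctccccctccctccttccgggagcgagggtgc
The Lhfpl3 window held 2 such matches and the Matn4 window 0. Windows were found for 14 of the 21 genes looked up, which were the 6 genes of the rule and 15 further genes that led over the other classes. An E-box of this form was in 21.4% of these 14 and in 25.3% of all 27025 windows. A SOX match (ACAAAG or ACAATG, either strand) was in 1 of the 14 windows (7.14%) and in 25.5% of all windows.

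The rule depended on depth. In all, 3567 kept barcodes held a Pdgfra UMI and 2693 also reached a marker sum of 4. Of these, 204 were left out for Enpp6, Mog or Opalin, and 558 for the markers of other classes. Just outside the threshold lay 125 barcodes with a sum of 3, and just inside it 157 with a sum of 4 and 176 with a sum of 5, while 873 OPCs had a sum of 10 or more. A further 344 barcodes reached the sum with no Pdgfra UMI and were not members. Of the members, 736 held the 1 permitted UMI of another class, and 59 were called doublets by Scrublet, against 2433 of all kept barcodes. No member barcode was shared between any of the 45 pairs of libraries. The OPCs held 3889261 UMIs, with 161139 to 775329 UMIs of the shared genes per library. The median OPC held 1736 UMIs and 1186 genes, against 1859 UMIs and 1121 genes in astrocytes. Thinned to 1000 UMIs, OPCs showed a median of 748 genes, astrocytes 668, excitatory neurons 739 and mature oligodendrocytes 637.

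Classes for comparison were chosen from the same barcodes by marker counts, and their differences from OPCs are descriptions, since the rule selected on this contrast. There were 4185 astrocytes, 12438 excitatory neurons, 1665 mature oligodendrocytes, 138 committed precursors and 45 fibroblasts. The last 2 were pooled over libraries. Levels are UMIs of a gene per 1e+06 summed UMIs (CPM), which count molecules and are not scaled by gene length. Values by library are listed for rank 1 replicates 1 to 5 and then for rank 4 replicates 1 to 5.

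The label was checked on 10 OPC genes that the rule did not use, and all 10 were detected. Their summed level (Olig1, Olig2, Sox10, Tnr, Cacng4, Cspg5, Neu4, Sox6, Ptprz1 and Pcdh15) ranged from 10099 to 14444 CPM over rank 1 libraries and from 9085 to 11533 CPM over rank 4 libraries. The same sum was 5244 CPM in committed precursors, 3058 CPM in astrocytes, 1331 CPM in mature oligodendrocytes and 564 CPM in excitatory neurons. Markers of other cell types were also present. The 7 astrocyte markers summed to 764 to 1253 CPM in OPC libraries against 15601 CPM in astrocytes, and the 6 excitatory markers to 222 to 1676 CPM against 5173 CPM in excitatory neurons. The 8 microglial markers summed to 326 to 1381 CPM, and the 4 haemoglobin genes to 124 to 2963 CPM. Mog and Opalin were at 0 because the rule required it.

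**Figure D1:**
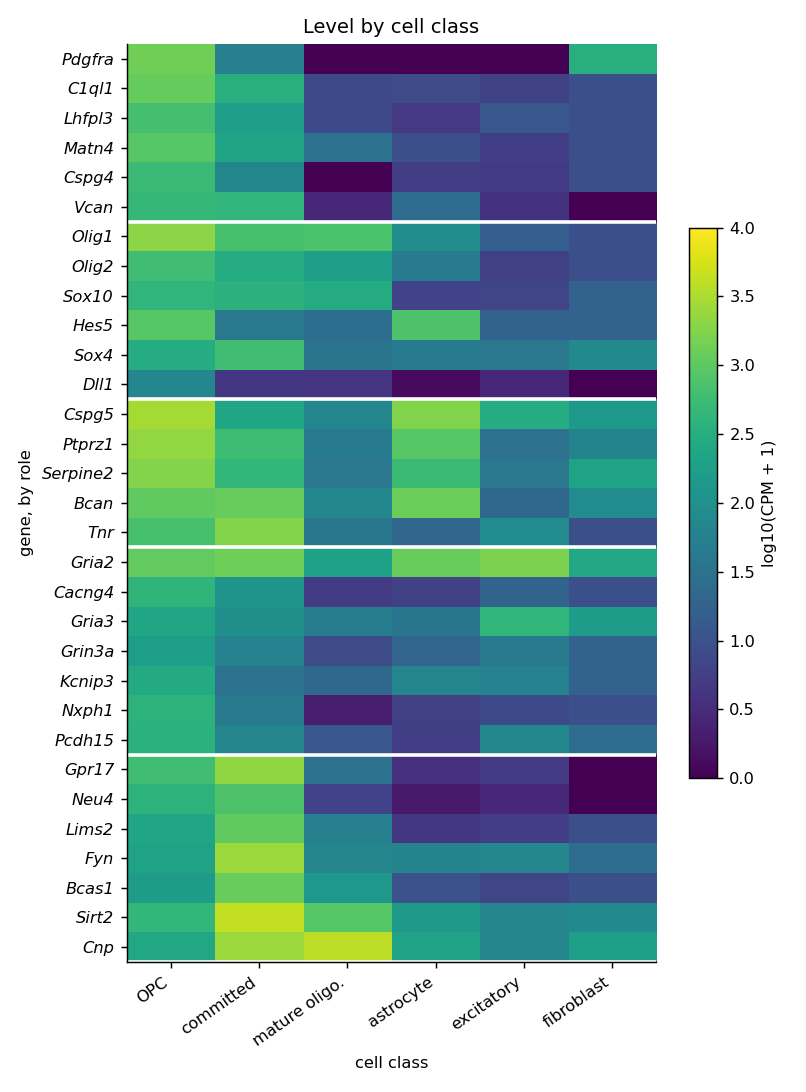
Level of 31 genes, as log10(CPM + 1), in OPCs and 5 other cell classes. Rows are grouped, top to bottom, into the 6 genes of the rule, transcription factors and Notch genes, matrix genes, receptors and adhesion genes, and genes of differentiation onset; values are medians over libraries, pooled over libraries for committed precursors and fibroblasts. Dll1 was near 0 in the other classes shown. Bcas1, which helped to choose the committed precursors, was at 1194 CPM there and 158 CPM in OPCs.

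Among the genes of the rule, Pdgfra was at 1349, 1196, 956, 2084 and 2133 CPM in rank 1 and at 1174, 1317, 1252, 2241 and 1509 CPM in rank 4. The 4 libraries of replicates 4 and 5 were the highest of the 10. Pooled fibroblasts held 316 CPM, since this receptor is also a fibroblast gene. C1ql1, a secreted C1q-like synaptic ligand, had a median of 1145 CPM in OPCs, 319 CPM in committed precursors and 7.12 CPM in astrocytes. Cspg4 was at 525 CPM in OPCs and 68.6 CPM in committed precursors, whereas versican (Vcan) was at 461 and 436 CPM. When each OPC was thinned to 1000 UMIs, Pdgfra was found in 80.5%, C1ql1 in 65.2%, Matn4 in 56.7%, Lhfpl3 in 43.4% and Cspg4 in 41.4% of OPCs.

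Genes outside the rule were ordered by the ratio of the OPC level to the highest of the other classes compared, at 50 CPM or more in OPCs. The classes compared held no interneurons, microglia or endothelial cells. The first 15 included Dll1, Mmp15, Cdo1, Calb2, Plpp4, Sapcd2, Nxph1, Emid1, Elfn1, Igfbp3, Ntn1, Ccnd1, Lnx1 and B3gat2. Dll1, a Notch ligand, was at 71.8, 121, 74.5, 78.3 and 41.5 CPM in rank 1 and at 69.6, 74.0, 54.8, 45.6 and 59.8 CPM in rank 4. No other class compared exceeded 3.43 CPM, which in committed precursors was a single UMI. It was found in 5.98% of OPCs at 1000 UMIs and in 0.268% of excitatory neurons, and its levels overlapped between the ranks. The neurexin ligand Nxph1 was found in 28.8% of OPCs at that depth and in at most 1.11% of the astrocytes, excitatory neurons, mature oligodendrocytes and committed precursors. Cyclin D1 (Ccnd1), which drives entry into the cell cycle, had a median of 349 CPM in OPCs, 49.4 CPM in astrocytes and 13.7 CPM in committed precursors. Cysteine dioxygenase (Cdo1) was at 347 CPM, but its libraries ranged from 224 to 750.0 CPM.

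Of the 24 lineage transcription factors, all were detected. Olig1 had a median of 2044 CPM in OPCs, against 744 CPM in mature oligodendrocytes and 91.6 CPM in astrocytes. Olig2, which specifies the lineage, was at 598 CPM and 169 CPM in OPCs and mature oligodendrocytes. Sox10, which drives myelin genes, was more even, at 424, 367 and 283 CPM in OPCs, committed precursors and mature oligodendrocytes. Hes5, a Notch target, was at 910.1 CPM in OPCs and 773 CPM in astrocytes but at 41.2 CPM in committed precursors. Sox4 was at 304 CPM in OPCs and 600.2 CPM in committed precursors. Among growth factor and signalling receptors, the endothelin receptor Ednrb was at 498 CPM, within a narrow range of 418 to 589.6 CPM over libraries, and the BDNF receptor Ntrk2 at 515 CPM. Egfr, the epidermal growth factor receptor, was at 2.75 CPM in OPCs and 62.1 CPM in astrocytes.

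Of the 26 matrix genes, 25 were detected and 16 were abundant enough to test between the ranks. Neuroglycan C (Cspg5) had a median of 2879.9 CPM in OPCs and 1719 CPM in astrocytes, the receptor phosphatase Ptprz1 2229 and 922 CPM, and the protease inhibitor Serpine2 1810.0 and 528 CPM. Tenascin R (Tnr) was at 674 CPM in OPCs and 1835 CPM in committed precursors. Brevican (Bcan) was about as high in astrocytes (1242 CPM) as in OPCs (1050.4 CPM). All 38 neurotransmitter receptor and auxiliary genes listed were detected. The AMPA receptor subunit Gria2 was at 1089.8 CPM, against 1170.4 CPM in astrocytes and 1615 CPM in excitatory neurons. The AMPA receptor auxiliary subunit Cacng4 was at 407 CPM in OPCs, 117 CPM in committed precursors and at most 17.7 CPM in astrocytes, excitatory neurons and mature oligodendrocytes. Grin3a, an NMDA receptor subunit, was at 167 CPM in OPCs and 41.8 CPM in excitatory neurons. The potassium channel partner Kcnip3 was at 276 CPM, with 212 to 329 CPM over libraries, and 65.2 CPM in astrocytes. Of the adhesion genes, contactin 1 (Cntn1) was at 889 CPM in OPCs and 374 CPM in excitatory neurons, and the protocadherin Pcdh15 at 363 and 73.3 CPM.

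The OPCs made up 3.72%, 6.86%, 4.92%, 5.93% and 2.94% of kept barcodes in rank 1 replicates 1 to 5 and 5.01%, 6.84%, 5.56%, 2.27% and 3.42% in rank 4. The means were 4.88% ± 1.59 and 4.62% ± 1.80 (SD, n = 5 libraries each). The difference of 0.257 percentage points was smaller than the spread between libraries (two-sided exact permutation p = 0.810, with 0.00794 the smallest p possible). It was -0.635 points within replicates 1 to 3 and 1.60 points within replicates 4 and 5. In a tissue dissociation the share also follows how many cells of every other type were recovered. The median OPC depth was 2867, 2136, 2293.5, 1872.5 and 1355 UMIs in rank 1 and 2950.5, 1749, 1701, 1044 and 1511 UMIs in rank 4, with means of 2105 ± 555 and 1791 ± 705 (exact permutation p = 0.437). The difference of 313.7 UMIs was 604 without rank 4 replicate 1, where no deposited barcode held fewer than 1037 UMIs, and 123 without rank 1 replicate 1.

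Gpr17, the receptor that marks the step towards the committed stage, was not used by the rule. At 1000 UMIs it was found in 682 of 1672 OPCs, or 40.8% (exact 95% interval 38.4% to 43.2%, counting error only), and in 57.8% of OPCs without thinning. Background was far lower, at 0.526% of astrocytes and 0.570% of excitatory neurons, with 2.03% in mature oligodendrocytes. By library the share was 42.0%, 46.1%, 33.3%, 59.8% and 48.2% in rank 1 and 48.4%, 44.9%, 33.0%, 44.2% and 27.9% in rank 4. The ranges overlapped, and the means of 45.9% ± 9.64 and 39.7% ± 8.75 (SD, n = 5 each) differed by 6.23 points (two-sided exact permutation p = 0.317). The difference was -1.60 points within replicates 1 to 3 and 18.0 points within replicates 4 and 5. Thinned to 1500 UMIs, it was 10.8 points (exact permutation p = 0.0952), and without thinning 13.6 points (exact permutation p = 0.151). At 1000 UMIs it was 2.75 points without rank 1 replicate 4.

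The onset genes Neu4, Bcas1 and Bmp4 were present in OPCs at levels below those of committed precursors. Committed precursors were chosen by Enpp6 and by the sum of Enpp6, Gpr17, Neu4, Bmp4 and Bcas1. The higher level of these genes in that class therefore followed from the choice and is not a result. The sialidase Neu4 was at 343, 664, 465, 429 and 271 CPM in rank 1 and at 252, 543, 556, 234 and 259.8 CPM in rank 4. Its ranks overlapped, and its median of 386 CPM in OPCs stood against 761 CPM in committed precursors and 0.911 CPM in astrocytes. Bcas1, a marker of early myelinating cells, was at 158 CPM in OPCs and 1194 CPM in committed precursors. Bmp4 was at 17.3 CPM in OPCs, where it rested on 71 UMIs in all, and at 895 CPM in committed precursors. Mag, a late myelin gene, was at 18.7 CPM in OPCs and 21.6 CPM in excitatory neurons.

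OPCs with and without Gpr17 were compared within each library after thinning, in a contrast chosen after the data had been seen. Of 1137 genes tested, 2 passed (0.176%; edgeR's quasi-likelihood test with Benjamini-Hochberg adjustment and the library as block), and 1 of them was Gpr17, which divided the cells. The other was cytoskeletal actin (Actb), at a median of 2406 CPM with Gpr17 and 2702 CPM without. It was lower with Gpr17 in 9 of 10 libraries, by -0.26 ± 0.06 on the log2 scale (SE, edgeR adjusted p = 0.00499). Without thinning, or in rank 1 libraries alone, 1 gene passed, and without rank 4 replicate 2 or rank 4 replicate 3 also 1; without rank 1 replicate 1 there were 4. Unadjusted p was under 0.05 for 69 genes.

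Of the 18 onset genes, 8 other than Gpr17 were abundant enough to test. All 8 had a log2 fold change above 0, as did 53.8% of all genes tested, and 0 passed. Neu4 was at a median of 428 CPM with Gpr17 and 305 CPM without, higher in 9 of 10 libraries, with a log2 fold change of 0.32 ± 0.12 (edgeR adjusted p = 0.432). Bcas1 was at 175 and 142 CPM, higher in 7 of 10 (0.50 ± 0.18). Mbp, the myelin basic protein gene, gave 0.01 ± 0.14. Kcnip3 was at 224 CPM with Gpr17 and 298 CPM without (-0.52 ± 0.15, edgeR adjusted p = 0.151), and Olig1 and Olig2 gave 0.02 ± 0.06 and 0.06 ± 0.10.

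**Figure D2:**
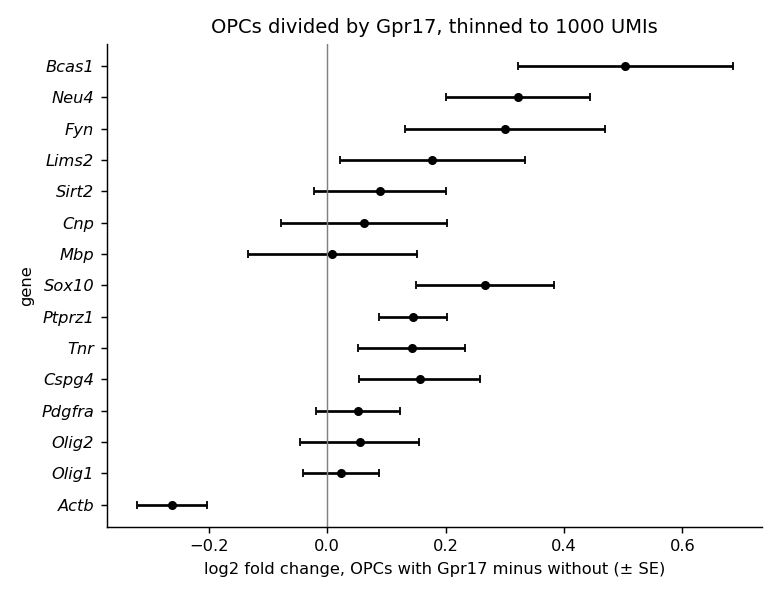
Log2 fold change of 15 genes between OPCs with and without a Gpr17 UMI, with all cells thinned to 1000 UMIs; points are estimates of edgeR with the library as block, and bars are ± SE. The top 7 rows are onset genes, all above 0 (from 0.01 for Mbp to 0.50 for Bcas1), and Actb in the last row lies below 0 at -0.26.

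Few OPCs carried transcripts of the G2 and M phases. At 1000 UMIs, 16 of 1672 OPCs (0.957%, exact 95% interval 0.548% to 1.55%) held at least 2 UMIs over the 18 listed genes, 45 held exactly 1 and 1611 held 0. The same count gave 0.0501% of astrocytes, 0.0864% of excitatory neurons and 0.145% of mature oligodendrocytes. Without thinning it gave 1.29% of OPCs (25 of 1931) and 1.30% of the deeper excitatory neurons (162 of 12438), with median depths of 1736 and 2764 UMIs, and 0.167% of astrocytes. The 16 cells came from 8 libraries and held a median of 13.5 UMIs of these genes before thinning, with 2 to 104 per cell. Mki67, a marker of proliferating nuclei, was found in 13 of them and the topoisomerase Top2a in 12. Both are among the 18 genes that chose these cells, so their presence is no separate evidence of division. Of the 16 cells, 0 were called doublets. Gpr17 was present in 8 of the 16 before thinning. The share was 0.786% ± 0.610 in rank 1 and 0.869% ± 0.657 in rank 4 (SD, n = 5 each; difference -0.0826 points, two-sided exact permutation p = 0.841). The difference was 0.334 points within replicates 1 to 3 and -0.707 points within replicates 4 and 5. With 0 to 6 such cells in a library, a difference of this size was not detectable at this depth.

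**Figure D3:**
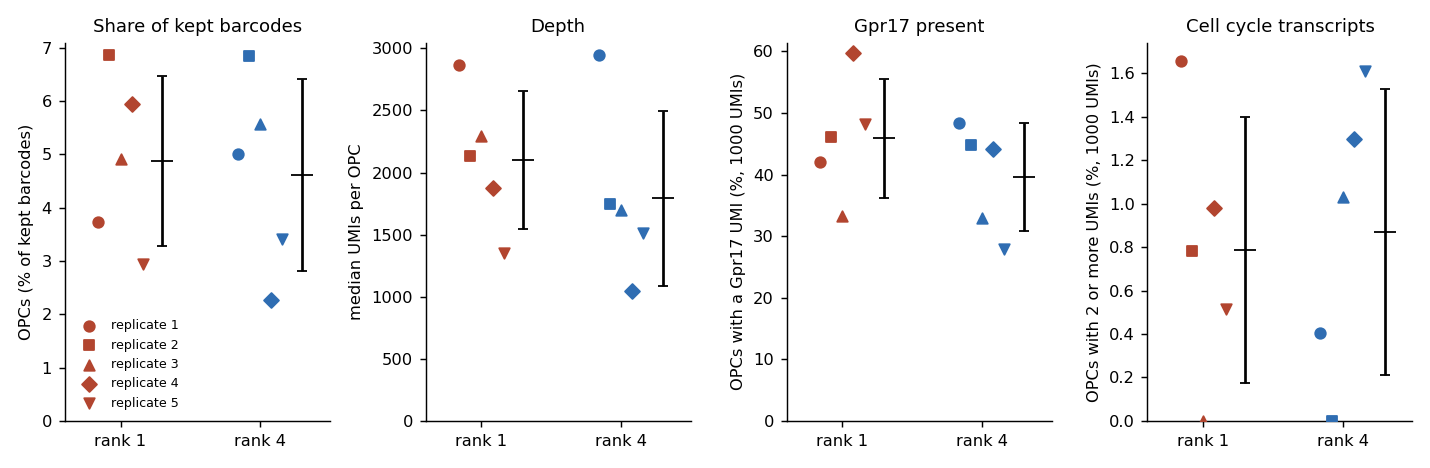
From left to right, the share of OPCs among kept barcodes, the median UMIs per OPC, the share of OPCs with a Gpr17 UMI and the share with 2 or more UMIs of 18 cell cycle genes, in each of 10 libraries; black bars are the mean ± SD of 5 libraries. The ranks overlap in every panel, and the rank 4 value of the Gpr17 share ranges from 27.9% to 48.4%.

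Levels in OPCs varied with the replicate number more often than with rank. The matrices of replicates 1 to 3 were written by another software version than those of replicates 4 and 5, and the labels give no date. For 1563 of 6267 tested genes (24.9%), the 4 libraries of replicates 4 and 5 did not overlap with the other 6, and 853 of these (13.6%) were higher and 710 (11.3%) lower in replicates 4 and 5. Between the ranks, 22 genes (0.351%) did not overlap, although the groups there are 5 and 5. Ptprz1 was at 2359, 1561, 1713, 4894 and 4307 CPM in rank 1 and at 2098, 1638, 1597, 4327 and 3852 CPM in rank 4, so the same 4 libraries stood above the others. Serpine2 went the other way, at 2281, 3116, 3047, 1259.8 and 1024 CPM and at 1339, 3168, 2596, 912 and 992 CPM.

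Receptor and channel genes were counted in the same comparison of replicates. Of all genes tested, 13.6% were higher and 11.3% lower without overlap in replicates 4 and 5, and the list counts are to be read beside these shares. Of 23 neurotransmitter receptor genes tested, 7 were higher without overlap in replicates 4 and 5, among them Cacng4, Gria3, Gria4, Grik4 and Grin3a, and 0 were lower. Of 21 ion channel genes, 5 were higher and 0 lower, and of 26 adhesion genes 5 were higher and 1 (Cadm1) lower. Matrix genes gave 4 higher and 1 lower of 16, lineage transcription factors 2 and 3 of 21, and heat shock genes 2 and 0 of 11. The remaining members of each list overlapped. Grin3a was at 80.7 to 175 CPM in replicates 1 to 3 and at 182 to 309 CPM in replicates 4 and 5. The 6 excitatory neuron markers in the same OPCs summed to 863, 287, 279, 637 and 1466 CPM in rank 1 and to 1184, 222, 290.3, 1676 and 1624 CPM in rank 4, lowest in replicates 2 and 3, and their part in the receptor levels was not tested. Cacng4 is at 17.7 CPM in excitatory neurons, below its level in every OPC library. In the other direction, 4 of 9 glucocorticoid response genes (Ddit4, Mt1, Mt2 and Tsc22d3) and 5 of 17 immediate early genes (Cyr61, Dusp1, Ier2, Ier5 and Nr4a1) were lower in replicates 4 and 5, and 0 of either list higher. Spry2, a feedback inhibitor of receptor tyrosine kinases, was at 169.7 to 255 CPM in replicates 1 to 3 and at 28.5 to 33.6 CPM in replicates 4 and 5. Fos, an immediate early gene of cell activation, was at 1222, 387, 316, 134 and 144 CPM in rank 1 and at 1147, 222, 151, 148 and 1220.1 CPM in rank 4. Its 3 high libraries were replicate 1 of both ranks and rank 4 replicate 5.

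**Figure D4:**
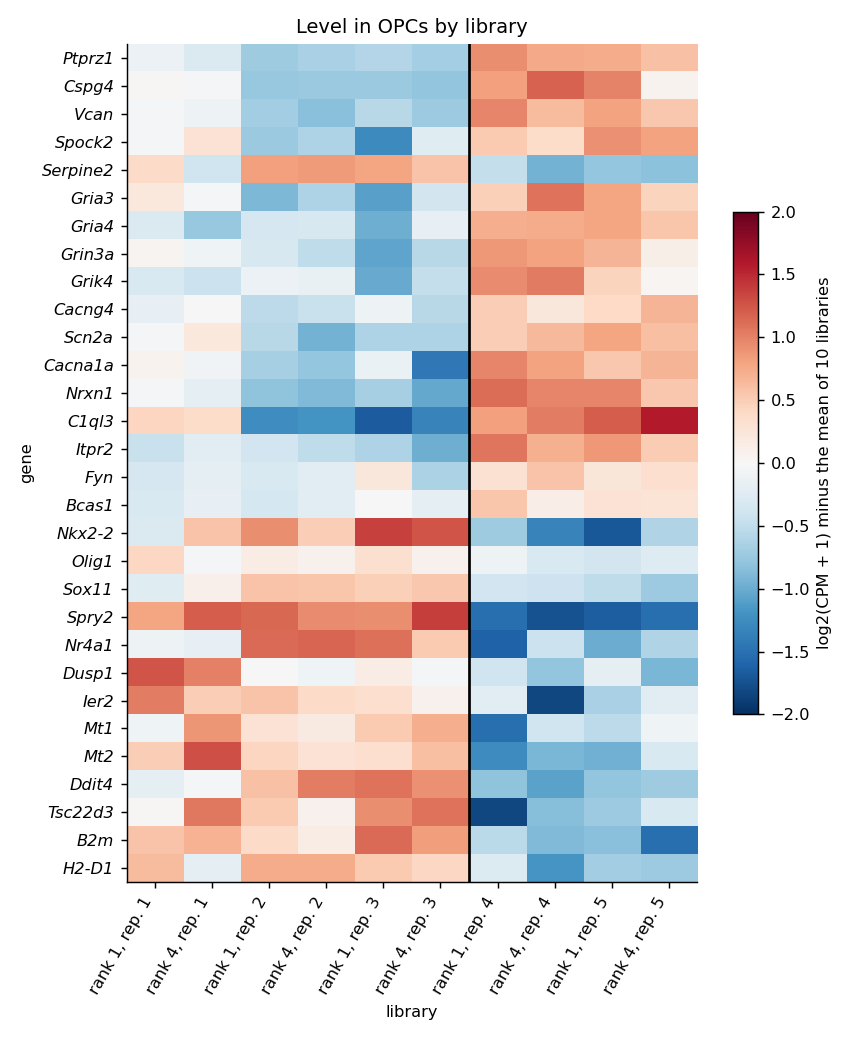
Level of 30 genes in OPCs as log2(CPM + 1) minus the mean of the 10 libraries, with libraries ordered by replicate number and a line between replicates 3 and 4. The genes shown were picked because replicates 4 and 5 do not overlap with replicates 1 to 3; Grin3a, for example, was at 182 to 309 CPM against 80.7 to 175 CPM, and Spry2 at 28.5 to 33.6 CPM against 169.7 to 255 CPM.

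Between rank 1 and rank 4, 0 of 6267 genes (0%) passed an adjusted p of 0.05 in edgeR's quasi-likelihood test of summed OPC counts with the software version as covariate. Unadjusted p was under 0.05 for 185 genes (2.95%), and the smallest adjusted p was 1.00. DESeq2 also called 0 genes and gave 103 with an unadjusted p under 0.05. Without rank 4 replicate 1, 413 genes had an unadjusted p under 0.05 and the smallest adjusted p was 0.431 in edgeR, again with 0 called.

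With the replicate number as a block, 12 genes (0.191%) passed, 2 higher and 10 lower in rank 1. These calls rested on the libraries used: without the pair of replicate 1, 0 genes passed (smallest edgeR adjusted p = 0.369), without replicate 4 only Sparc of the 12, without replicates 2, 3 and 5 in turn 11, 6 and 6 of the 12. All 12 kept their direction in each of these 5 fits, which called 0, 32, 8, 2 and 20 genes in all without replicates 1 to 5. The 2 higher ones were Slc1a1, a glutamate transporter, and Igf2bp3, an RNA-binding protein of mRNA transport. Slc1a1 was at 178, 128, 112, 253 and 188 CPM in rank 1 and at 121, 109, 74.0, 91.2 and 107 CPM in rank 4, higher in rank 1 in 5 of 5 pairs (blocked log2 fold change 0.71 ± 0.17 SE, edgeR adjusted p = 0.0381). Without the block it was 0.74 ± 0.23 (edgeR adjusted p = 1.00). Igf2bp3 was at 204, 81.6, 86.9, 89.5 and 63.6 CPM in rank 1 and at 94.2, 59.2, 68.5, 45.6 and 29.2 CPM in rank 4, again higher in 5 of 5 pairs (0.86 ± 0.21, edgeR adjusted p = 0.0374). The groups of both genes overlapped.

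The 10 lower genes were Nrgn, Mt3, Sparc, Bola2, Atp5k, Nrsn1, Rpl21, Syt1, Rps28 and C1qa. Nrgn, the neuronal protein neurogranin, was at 131, 31.9, 12.4, 212 and 398 CPM in rank 1 and at 279.9, 29.6, 38.3, 502 and 609 CPM in rank 4 (-0.90 ± 0.17, edgeR adjusted p = 0.00188). It was lower in rank 1 in 4 of 5 pairs and at 817 CPM in excitatory neurons. Syt1, the synaptic vesicle calcium sensor, was at 1269.9 CPM in excitatory neurons and lower in rank 1 OPCs in 4 of 5 pairs (-0.68 ± 0.16). C1qa, a complement gene of microglia, gave -0.78 ± 0.19 in OPCs and is itself a member of the microglial list. In the fit without the block, leaving out rank 4 replicate 1 brought Nrgn from -0.89 to -0.15, Syt1 from -0.67 to -0.07 and C1qa from -0.77 to -0.02, and leaving out rank 1 replicate 1 brought them to -1.38, -1.09 and -1.28. Likewise Igf2bp3 went from 0.88 to 0.51 without rank 1 replicate 1, and Mt3 from -0.64 to -0.34 without rank 4 replicate 5 and to -0.41 without rank 1 replicate 4. Beside these genes, the excitatory markers in OPCs and the microglial markers were each lower in rank 1 in 4 of 5 pairs (two-sided exact permutation p = 0.444 and 0.325). Nrgn is itself 1 of the 6 excitatory markers, so this sum is not separate from its call. In replicates 3 and 5 the excitatory sum was lower in rank 1 by less than Nrgn alone. The excitatory sum was 279 to 1466 CPM in rank 1 and 222 to 1676 CPM in rank 4, and the microglial sum 335 to 896 CPM and 326 to 1381 CPM, and their part in the calls was not tested. Mt3, a metallothionein at 3478 CPM in astrocytes, was at 565, 504, 614, 242 and 669 CPM in rank 1 and at 883, 533, 663, 547 and 1381 CPM in rank 4, lower in 5 of 5 pairs (-0.63 ± 0.13, edgeR adjusted p = 0.0198). The 7 astrocyte markers summed to 764 to 1253 CPM in rank 1 and 873 to 1234 CPM in rank 4, lower in rank 1 in 3 of 5 pairs. Nrsn1, a neuronal vesicle protein, was at 57.1, 39.0, 31.0, 29.8 and 38.7 CPM in rank 1 and at 117, 83.9, 63.0, 74.1 and 58.4 CPM in rank 4. Its ranks did not overlap, and it stood at 225 CPM in excitatory neurons (-0.96 ± 0.27 without the block, edgeR adjusted p = 0.0310 with it). Counts of the ribosomal genes Rpl21 and Rps28 are uncertain, since both have many near-identical copies.

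The 12 genes with the smallest unadjusted p were Dohh, Micu2, Nrsn1, Ntsr2, Mynn, Crbn, Bola2, Slc1a1, Ddit3, Mtpn, Pcbd2 and Ufl1, of which 7 were lower and 5 higher in rank 1. The ranks did not overlap for Dohh, Nrsn1, Ntsr2 and Mynn, as for 22 of all 6267 genes tested (0.351%). Genes picked for a small p are more likely to show this, so it adds no support. Dohh, an enzyme of hypusine synthesis, was at 52.2, 42.6, 55.9, 18.6 and 30.4 CPM in rank 1 and at 65.8, 78.9, 101, 57.0 and 70.1 CPM in rank 4 (-0.93 ± 0.25, edgeR adjusted p = 1.00). Mynn, a zinc finger gene, was at 39.2 to 67.1 CPM in rank 1 and 22.8 to 29.2 CPM in rank 4 (0.89 ± 0.26), from 4 to 24 UMIs per library. The neurotensin receptor Ntsr2 was at 22.4 to 49.8 CPM in rank 1 and 51.3 to 112 CPM in rank 4 (-0.88 ± 0.26), and at 1103 CPM in astrocytes. Micu2, a regulator of mitochondrial calcium uptake, and Crbn, a ubiquitin ligase receptor, gave 0.97 ± 0.27 and 1.05 ± 0.31, higher in rank 1 in 5 of 5 pairs each.

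**Figure D5:**
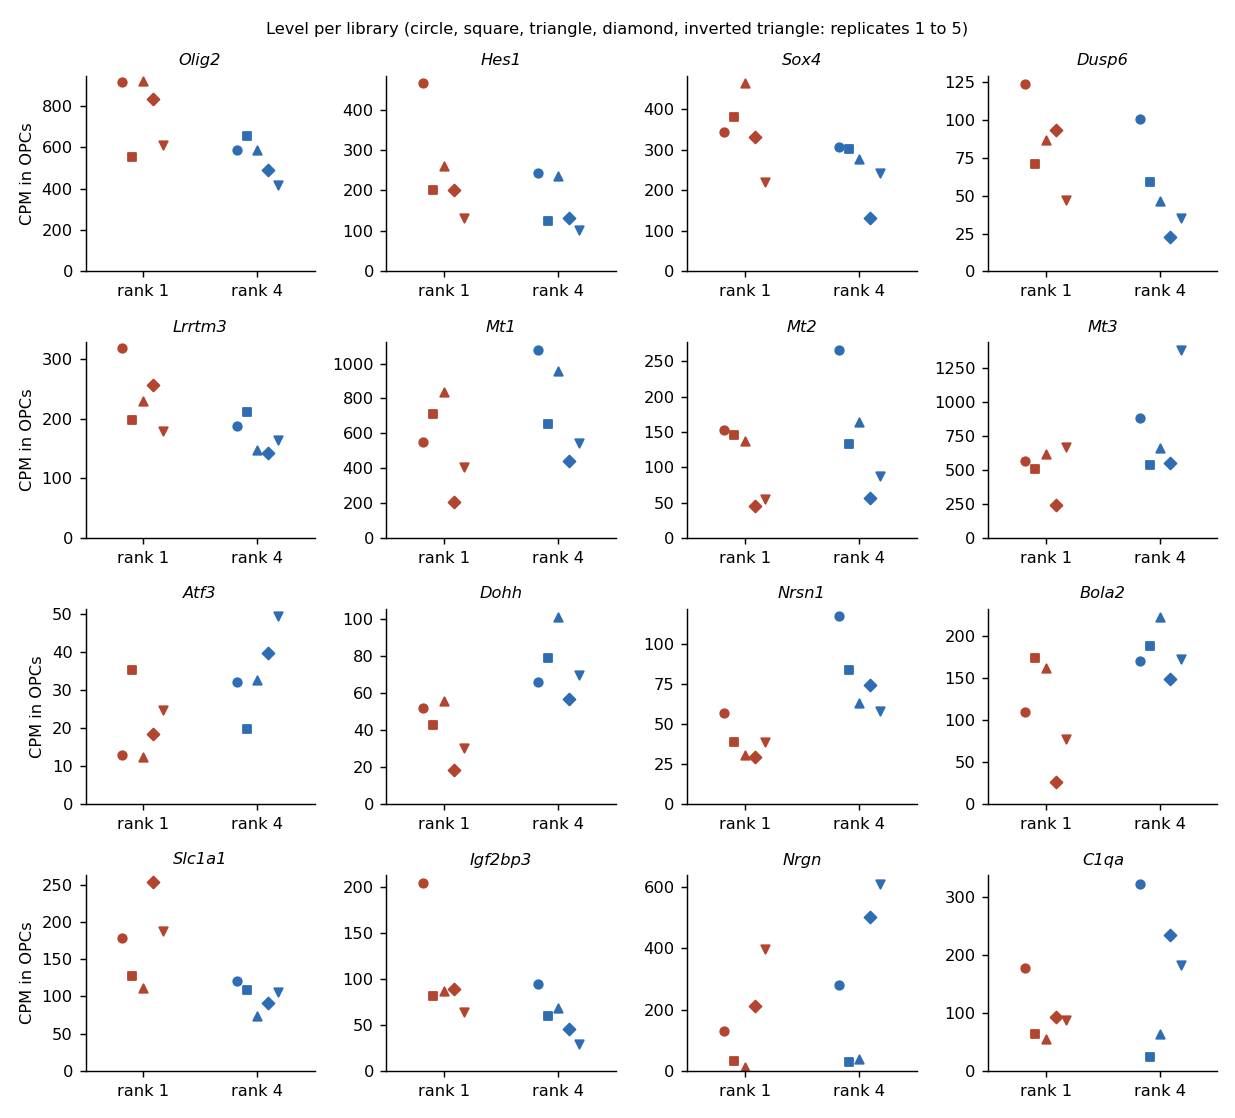
Level of 16 genes in OPCs of each library, in CPM from summed UMIs, for rank 1 and rank 4; the marker shape gives the replicate number. Dohh and Nrsn1 are the genes shown whose ranks do not overlap, and Nrgn spans 12.4 to 609 CPM over the libraries.

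By function, none of the 15 lists had a member that passed without the block, and Sparc, a matrix glycoprotein, was the only list member that passed with it. Without rank 4 replicate 1, where Sparc stood at 328 CPM against at most 96.3 CPM elsewhere, its unblocked log2 fold change moved from -1.11 to -0.01. Among lineage transcription factors, 17 of 21 tested were higher in rank 1 and 4 lower (81.0% higher, median log2 fold change 0.20), against 47.8% higher and a median of -0.01 over all genes. The median ran from 0.11 (without rank 4 replicate 5) to 0.28 (without rank 4 replicate 1). The 10 OPC genes outside the rule include Olig1, Olig2, Sox10 and Sox6. Their sum was also higher in rank 1 in 5 of 5 pairs (means 11837 and 10171 CPM). The excitatory marker sum, which holds Nrgn, and the microglial sum, which holds C1qa, were each lower in 4 of 5 pairs. The part of these sums in the list's values was not tested. Olig2 was at 912, 550.0, 918, 831 and 609 CPM in rank 1 and at 587, 651, 586, 490.3 and 416 CPM in rank 4, higher in 4 of 5 pairs, with overlapping ranks (0.49 ± 0.20, edgeR adjusted p = 1.00, blocked 0.0762). Hes1, a Notch target, was at 465, 202, 261, 201 and 133 CPM and at 244, 123, 236, 131 and 102 CPM, higher in 5 of 5 pairs (0.58 ± 0.26, blocked adjusted p = 0.0682 in edgeR), and it gave 0.29 without rank 1 replicate 1. Sox4 gave 0.44 ± 0.20, higher in 4 of 5 pairs.

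Of the matrix and adhesion genes, 13 of 16 and 19 of 26 tested members had a value above 0 in rank 1 against rank 4, with medians of 0.18 each and 0 called without the block. These lists hold 3 and 2 of the genes that chose the cells, and without them 10 of 13 and 19 of 24 were above 0, with medians of 0.23 and 0.21. Sparc, the matrix gene called with the block, was lower. Beside these lists and the growth factor list, the excitatory marker sum (with Nrgn) and the microglial sum (with C1qa) were lower in rank 1 in 4 of 5 pairs each. The sum of 10 OPC genes, which holds Tnr, Cspg5 and Ptprz1 of the matrix list, was higher in 5 of 5. The part of these sums was not tested. With 1 library left out, the matrix median ran from 0.08 (without rank 4 replicate 5) to 0.25 (without rank 4 replicate 2), and the adhesion median from 0.07 (without rank 1 replicate 1) to 0.29 (without rank 4 replicate 1). The collagen gene Col9a3 (0.53 ± 0.23) and the synaptic adhesion gene Lrrtm3 (0.47 ± 0.20) were the members of these lists with an unadjusted p under 0.05. Growth factor receptors and their signalling genes gave 16 higher and 7 lower (median 0.12), and 15 and 7 without Pdgfra (0.13). Leaving out rank 1 replicate 1 brought their median to 0.04, and leaving out rank 4 replicate 1 to 0.24. Dusp6, a phosphatase induced by MAP kinase signalling, gave 0.63 ± 0.30, higher in 5 of 5 pairs, and 1.03 without rank 4 replicate 1. Neurotransmitter receptors (13 higher, 10 lower, median 0.02), ion channels (10 and 11, -0.01), onset genes (8 and 4, 0.05) and cholesterol and fatty acid genes (10 and 9, 0.03) had medians near that of all genes. With 1 library left out, the receptor, channel and cholesterol medians took either sign, and the onset median ran from 0.03 to 0.14. Scn1a, a sodium channel gene, gave 0.64 ± 0.29 and the fatty acid enzyme Acaca 0.58 ± 0.25.

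Of 9 glucocorticoid response genes tested, 1 was higher and 8 were lower in rank 1 (median -0.25), of 11 heat shock genes 2 and 9 (-0.24), and of 17 immediate early genes 5 and 12 (-0.13), with 0 called in each. The immediate early median turned to 0.09 without rank 4 replicate 5 and was -0.28 without rank 1 replicate 2, while those of the other 2 lists stayed below 0 with any 1 library left out (heat shock -0.14 without rank 4 replicate 5). The excitatory marker sum (with Nrgn) and the microglial sum (with C1qa) in these OPCs were lower in rank 1 in 4 of 5 pairs each. At 1000 UMIs the heat shock gene Hsp90aa1 was found in 60.6% of OPCs and 78.2% of excitatory neurons. Hspa8 was found in 79.2% and 68.5%, so heat shock genes differed between these classes in either direction. The part of other cell types in these lists was not tested. Mt1, a metallothionein induced by glucocorticoids and metals, was at 549.9, 713, 838, 205 and 407 CPM in rank 1 and at 1078, 656, 959, 439 and 546 CPM in rank 4 (-0.51 ± 0.22, edgeR adjusted p = 1.00, blocked 0.0682). It was at 6070.4 CPM in astrocytes. Mt2 gave -0.49 ± 0.23, or -0.23 without rank 4 replicate 1, and Atf3, a stress-induced transcription factor, -0.81 ± 0.33 from as few as 2 UMIs in a library. The glucocorticoid receptor gene Nr3c1 was at 99.3 to 186 CPM in rank 1 and 104 to 172 CPM in rank 4. Antigen presentation genes gave 4 higher and 1 lower, steroid receptors 3 and 1, and S phase genes 0 and 3 (antigen presentation median 0.27, and 0.07 without rank 4 replicate 5), while 0 of the 18 G2 and M genes were abundant enough to test.

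Rank differences in OPCs were set against those in other glia within the same libraries. For 0 of 5925 genes (0%) did the OPC difference depart from the astrocyte difference at an adjusted p of 0.05 in limma, and 257 had an unadjusted p under 0.05. The smallest adjusted p was 0.248, for the insulin receptor substrate Irs2, whose log2 fold change was 1.32 ± 0.21 greater in OPCs. Of 2806 genes compared with mature oligodendrocytes, 0 (0%) passed in limma, and 78 had an unadjusted p under 0.05. Mt1, Mt3 and Nrgn differed from their astrocyte values by -0.14 ± 0.22, -0.23 ± 0.20 and -0.10 ± 0.28. Against mature oligodendrocytes, Nrgn gave -0.76 ± 0.24 (limma adjusted p = 0.996, unadjusted 0.00860).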

How the data were processed

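Single-cell libraries of the medial prefrontal cortex were deposited as raw UMI counts per gene and barcode, which the authors made with Cell Ranger 4.0.0 on mm10, per the submitters' processing notes. Per the file headers, replicates 1 to 3 were written by version 3.1.0 and replicates 4 and 5 by version 4.0.0. Only the 30406 gene identifiers in both gene lists were used. Library totals ran from 4442750 to 29278466 UMIs. Up to 104 barcodes were shared by a pair of libraries. Gene positions are from GENCODE M21 (GRCm38).

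Doublets were called with Scrublet in scanpy 1.11.5 (expected rate 0.06). Its own threshold marked 0% of barcodes in replicate 1 of both ranks, and 0.245, the median over the remaining libraries, replaced it. Called doublets stayed in the main values. UMIs of OPCs were summed per library, and libraries with at least 20 cells entered. Ranks were compared with edgeR 4.0.16 (quasi-likelihood, TMM, filterByExpr, Benjamini-Hochberg adjustment, software version as covariate), with DESeq2 1.42.0 as an alternative. The OPC difference was set against that of astrocytes and mature oligodendrocytes with limma 3.58.1 on log2 CPM (prior count 2). Shares were compared by two-sided exact permutation over the 252 divisions of 10 libraries. Shares of cells with a transcript were counted after thinning each barcode to 1000 UMIs, leaving out 259 OPCs with fewer. Intervals are exact Clopper-Pearson. The labels say that the libraries are independent pools of mice.

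Samples of the same replicate number deviated together from their rank means (r = 0.494, 0.623, 0.660, 0.617 and 0.684 over genes for replicates 1 to 5), so the numbers were taken as pairs. With the software version also removed, r was 0.688, 0.257, 0.283, 0.0290 and 0.0290. Rank 1 replicates 2 and 5 correlated best with rank 4 replicates 3 and 4, so 2 of 5 did not correlate best with their own number.

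Genes were named by rule: those passing without the block (0), the 12 of smallest p, list members with an unadjusted p under 0.05 (11), for levels the markers of the rule, genes of the 15 lists and the 15 genes leading over other classes. Genes passing with the block were added after their values were seen, as were the other genes shown by replicate or by Gpr17. The OPCs, the lists and the tests were chosen with earlier results of these data known. The lower glucocorticoid and heat shock lists were among these and are not independent evidence. Alternatives changed the filters, the rule, doublets, covariate, block, normalization, test, thinning and single libraries. Statistics were tested on simulated counts with the same fixed spread for every gene, changing only genes of higher counts. Between the ranks in OPCs, edgeR recovered 36.4% of 2-fold and 100% of 4-fold changes. For the OPC minus astrocyte difference, limma recovered 6.90% and 75.3%. A count of 0 genes therefore does not show that rank changes of this size are absent. Values of a few genes are not reported here.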

Additional observations from a re-analysis of the deposited data

Results flagged for a closer look

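Among the log2(CPM + 1) levels of named genes and the library measures, 72 groups of 5 libraries were looked at, and 3 held a library far from the other 4, where about 3.6 are due by chance. Ntsr2, the neurotensin receptor, stood at 4.55 in rank 1 replicate 4, below the other rank 1 libraries. Sox4 stood at 7.05 in rank 4 replicate 4, below the other rank 4 libraries. Mt3, a metallothionein, stood at 7.93 in rank 1 replicate 4, again the lowest of its rank. In each the gap to the nearest library was over 0.71 of the group's range (0.803, 0.721 and 0.720).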

How the results depend on the processing

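No share or depth difference between the ranks passed its test under any setting run, though within replicates 1 to 3 or 4 and 5 an exact p under 0.05 was out of reach. The OPC share difference (0.257 points) turned to -0.0718 with at least 1000 genes per barcode and -0.635 within replicates 1 to 3, and ran from -0.331 to 0.812 with 1 library left out. It stayed positive when members were chosen in barcodes thinned to 1000 UMIs with the marker sum also lowered from 4 to 3 (0.612, added after seeing the data). The cell cycle difference (-0.0826) turned to 0.224 with at least 1000 genes, 0.147 with a marker sum of 6, 0.173 with no UMI of other classes, 0.334 within replicates 1 to 3, 0.457 with 1 UMI and 0.215 without thinning, and ran from -0.300 to 0.114 with 1 library left out. The Gpr17 difference (6.23) turned to -1.60 within replicates 1 to 3 and was 2.75 to 9.37 with 1 library left out. The cause was not tested. Genes differing by rank numbered 12 with the replicate block and 1 (Sst) within replicates 4 and 5, and 0 under every other setting, each library left out included. With the block, leaving out 1 pair gave 0 to 32 genes. The block changed no other call: paired exact p was 0.938 for the OPC share, 0.813 for the cell cycle share and 0.313 for the Gpr17 share, with 0.0625 the smallest possible. Genes differing with Gpr17 numbered 4 with at least 2 Gpr17 UMIs, 1 unthinned and 1 in rank 1 libraries alone, and 1 to 4 with 1 library left out. Over the alternatives, 670 log2 fold changes of named genes kept their direction and side of the threshold, 12 passed it with the block and 0 reversed.

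Depth limits rare transcripts: 259 OPCs had under 1000 UMIs, and Mynn and Dohh rested on as few as 4 and 5 UMIs in a library.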
